A study of Mus musculus with 15 samples.

Results

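The effect of FK506 on curdlan-activated dendritic cells was compared between 2 h and 4 h of stimulation. For each gene the interaction was computed as the FK506 effect at 4 h (curdlan 4h minus curdlan +FK506 4h) minus the FK506 effect at 2 h (curdlan 2h minus curdlan +FK506 2h), on the log2 scale of the array values. All 12 curdlan arrays of the 15 in the series entered this contrast, and 19937 genes were tested. A positive interaction means that the gene stood lower with FK506, relative to curdlan alone, at 4 h than it did at 2 h.

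The cells were D1, a long-term line of splenic dendritic cells from C57BL/6 mice. They were left nontreated, or received curdlan, a beta-glucan, at 10 ug/ml for 2 h or 4 h, with or without FK506 throughout the culture. Each of the 5 groups held 3 arrays that the labels call biological replicates. All samples came from a single cell line, the nontreated group carries no time label, and FK506 without curdlan was not analysed here, so an effect of FK506 outside curdlan stimulation cannot be told apart from its effect on the response.

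Curdlan binds the lectin dectin-1, which signals through Syk to the NF-kB and MAP kinase pathways and, through phospholipase C and calcium, to calcineurin. Calcineurin dephosphorylates NFAT factors, which then enter the nucleus and act at cytokine genes together with AP-1. FK506 bound to its immunophilin blocks calcineurin, so genes that depend on NFAT are induced less in its presence. In dendritic cells some transcripts appear early after stimulation, and others appear only later, when secreted mediators such as type I interferons can act back on the cells.

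The scavenger receptor gene Olr1, the sodium channel subunit gene Scnn1g, the chemokine gene Cxcl9 and a block of interferon-stimulated genes rose steeply between 2 h and 4 h with curdlan and much less, or without a call, when FK506 was present. In the opposite direction, the signalling genes Itpkb and Sema7a were lowered by FK506 most at 2 h. The interaction was called positive for 212 genes (1.06% of those tested) and negative for 34 (0.171%), at an adjusted p below 0.05 in limma and a difference of at least 1.5-fold. At any size, 594 genes were positive and 278 negative. With the median level of the probe sets that carry no gene symbol as a covariate the calls were 187 and 81, so the positive share was 69.8% in place of 86.2%. The median interaction over all genes was -0.05, and the median standard error was 0.11. At the 1.5-fold limit, Abtb2 lay just inside at 0.5876 and Grasp just outside at 0.5836.

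A positive interaction was not always a deeper block by FK506. Of the 212 genes, 147 were called lower with FK506 at 4 h, against 306 of all genes (1.53%). Among these, 127 had no call at 2 h, 19 were lower at both times, and Slfn1 was higher with FK506 at 2 h. For 18 genes including Slfn1 the level was higher with FK506 at 2 h, a call made for 72 genes in all (0.361%), and 48 had no FK506 call at either time. Of the 34 negative genes, 25 were lower with FK506 at 2 h, against 152 of all genes (0.762%), and 7 of these were still lower at 4 h. A further 3 were higher with FK506 at 4 h, against 42 of all genes (0.211%), and 6 had no FK506 call. Calls at single times and the interaction differed: 211 genes were called lower with FK506 at 4 h and not at 2 h, and the interaction was called for 127 of them. Similarly, 58 genes were called lower at 2 h and not at 4 h, and the interaction was called for 18.

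**Figure D1:**
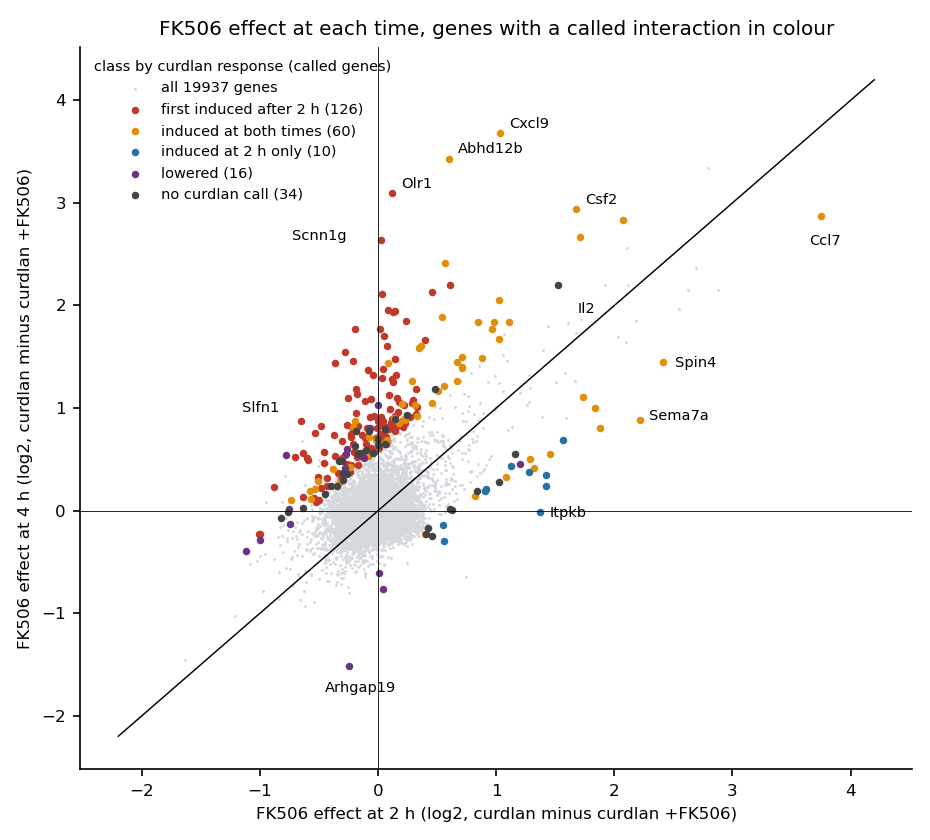
FK506 effect at 2 h (x axis) and at 4 h (y axis) in log2 units, written as curdlan minus curdlan +FK506, for 19937 genes in grey and the 246 genes with a called interaction in colour by their class of curdlan response. The diagonal marks equal effects: Olr1, Abhd12b and Cxcl9 lie far above it, Itpkb, Sema7a and Ccl7 below it, and Il2 close to it.

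Genes were sorted by their response to curdlan alone. Against nontreated cells, curdlan raised 439 genes at 2 h (2.2%) and 1007 at 4 h (5.05%). Genes raised at 4 h and not at 2 h, 642 in number, are called first induced after 2 h, and 365 genes were induced at both times. A further 74 genes were raised at 2 h only, 940 were lowered at either time, and 17916 were not called. The curdlan arrays that set these classes also enter the interaction, so counts by class are descriptions. Of the 212 positive genes, 126 were first induced after 2 h, 48 were induced at both times, 12 belonged to the lowered class and 26 had no curdlan call. No gene first induced after 2 h had a negative interaction. Of the 34 negative genes, 12 were induced at both times, 10 at 2 h only, 4 were lowered and 8 had no curdlan call.

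Olr1, which encodes the oxidized LDL receptor LOX-1, had the largest interaction. Its log2 levels were 4.84, 4.79 and 4.64 in the nontreated arrays, 4.83, 4.80 and 4.99 with curdlan at 2 h, and 4.78, 4.76 and 4.73 with curdlan +FK506 at 2 h. At 4 h they were 8.22, 8.37 and 8.08 with curdlan and 4.99, 5.15 and 5.25 with FK506. The 3 curdlan 4 h arrays stood far above all others, and the FK506 arrays at 4 h lay barely above the nontreated level. The FK506 effect was 0.12 at 2 h and 3.09 at 4 h, an interaction of 2.97 ± 0.12 (SE, n = 3 arrays per group, limma adjusted p = 1.85e-08).

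Scnn1g, the gamma subunit of the epithelial sodium channel, had the same course. Its levels were 5.32, 5.38 and 5.21 with curdlan at 2 h, 5.27, 5.31 and 5.26 with FK506 at 2 h, 8.22, 8.19 and 7.97 with curdlan at 4 h, and 5.61, 5.43 and 5.42 with FK506 at 4 h. The groups overlapped at 2 h and were separated at 4 h. The interaction was 2.62 ± 0.10, and the change from 2 h to 4 h was 2.82 with curdlan and 0.21, not called, with FK506.

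Abhd12b, a gene of the alpha/beta hydrolase domain family, and Cxcl9, which encodes a chemokine that attracts CXCR3-bearing lymphocytes, were already raised at 2 h and climbed much further. Abhd12b stood at 5.17, 5.10 and 5.07 with curdlan at 2 h and at 8.13, 8.27 and 8.30 at 4 h. With FK506 its levels were 4.45, 4.63 and 4.47 at 2 h and 4.80, 4.80 and 4.80 at 4 h. The interaction was 2.84 ± 0.09. Cxcl9 rose from 6.99, 7.15 and 6.83 at 2 h to 9.72, 9.96 and 9.66 at 4 h with curdlan, and went from 5.91, 5.93 and 6.03 to 6.17, 6.06 and 6.08 with FK506. The groups were separated at both times for both genes, and the interaction of Cxcl9 was 2.65 ± 0.12. The next largest positive values belonged to Ifit3b (2.09), Ifit3 (1.97), Mx2 (1.87) and Idi2 (1.85), an isopentenyl diphosphate isomerase gene. Several of these genes began near the low end of the array scale (the lower quartile of gene means was 5.28), where normalised array values compress fold changes.

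Sequences before the transcription start are shown for Il2, the reference target of calcineurin and NFAT, for the 5 genes with the largest interaction that matched a RefSeq window (build GRCm38.p6), and for Sema7a, a negative gene added after its values were seen. Each run holds the 250 bases before the annotated start, 5′ to 3′ on the gene's strand. Capitals mark matches, on either strand, to GGAAAA (NFAT), TGANTCA (AP-1), TGACGTCA (CRE), GAAANNGAA (IRF) and the kB consensus. GGAAAA and GAAANNGAA share the letters GAAA, so their matches can overlap. Il2 lies at chr3:37125955-37126204, minus strand, Olr1 at chr6:129507166-129507415, minus strand, and Abhd12b at chr12:70153881-70154130, plus strand. Cxcl9 lies at chr5:92328080-92328329, minus strand, Scnn1g at chr7:121734229-121734478, plus strand, Ifit3b at chr19:34607707-34607956, plus strand, and Sema7a at chr9:57939862-57940111, plus strand.
Il2: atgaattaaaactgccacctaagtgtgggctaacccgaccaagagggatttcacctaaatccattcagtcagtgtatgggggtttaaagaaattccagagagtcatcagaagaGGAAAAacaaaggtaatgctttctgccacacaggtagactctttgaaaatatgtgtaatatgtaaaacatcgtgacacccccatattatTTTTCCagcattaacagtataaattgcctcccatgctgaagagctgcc
Olr1: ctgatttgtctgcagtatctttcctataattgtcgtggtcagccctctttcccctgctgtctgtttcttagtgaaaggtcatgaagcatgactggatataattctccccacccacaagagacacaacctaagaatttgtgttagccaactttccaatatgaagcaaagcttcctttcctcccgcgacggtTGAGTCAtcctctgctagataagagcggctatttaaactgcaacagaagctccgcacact
Abhd12b: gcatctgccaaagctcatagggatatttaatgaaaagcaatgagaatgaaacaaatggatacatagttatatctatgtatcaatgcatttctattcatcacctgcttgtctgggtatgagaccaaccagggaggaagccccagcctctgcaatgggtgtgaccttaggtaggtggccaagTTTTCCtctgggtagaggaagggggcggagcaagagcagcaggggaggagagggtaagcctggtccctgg
Cxcl9: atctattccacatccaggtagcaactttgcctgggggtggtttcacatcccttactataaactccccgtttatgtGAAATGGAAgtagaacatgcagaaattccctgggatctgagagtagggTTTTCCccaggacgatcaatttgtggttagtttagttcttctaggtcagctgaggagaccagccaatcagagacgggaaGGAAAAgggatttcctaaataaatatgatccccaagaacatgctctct
Scnn1g: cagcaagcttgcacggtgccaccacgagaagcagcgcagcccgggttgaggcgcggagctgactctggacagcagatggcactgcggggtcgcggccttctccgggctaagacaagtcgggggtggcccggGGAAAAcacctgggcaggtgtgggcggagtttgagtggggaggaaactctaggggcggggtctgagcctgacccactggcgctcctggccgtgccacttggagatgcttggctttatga
Ifit3b: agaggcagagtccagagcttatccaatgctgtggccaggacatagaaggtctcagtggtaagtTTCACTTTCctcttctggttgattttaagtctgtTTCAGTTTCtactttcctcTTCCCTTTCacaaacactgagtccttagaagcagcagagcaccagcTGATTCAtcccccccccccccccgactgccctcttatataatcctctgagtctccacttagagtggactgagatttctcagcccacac
Sema7a: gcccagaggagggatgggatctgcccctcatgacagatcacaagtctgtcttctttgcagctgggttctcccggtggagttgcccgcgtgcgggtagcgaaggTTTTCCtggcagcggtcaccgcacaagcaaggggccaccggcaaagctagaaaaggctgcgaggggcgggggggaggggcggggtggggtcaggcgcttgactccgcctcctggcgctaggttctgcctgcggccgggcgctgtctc

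The Il2 run holds the NFAT letters at 137 and 48 bases before the start, and Cxcl9 holds them at 127 and 48 with an IRF match at 175. Ifit3b holds IRF matches at 187, 153 and 134 and an AP-1 match at 88. Olr1 holds an AP-1 match at 60 and no NFAT letters, while Abhd12b, Scnn1g and Sema7a each hold the NFAT letters once, at 70, 119 and 147. Among 15613 windows of tested genes, 19.9% held the NFAT letters, 6.11% the AP-1, 2.12% the CRE, 6.9% the IRF and 7.87% the kB match. Only 157 of the 212 positive genes had a window, and in these the shares were 23.6%, 9.55%, 1.27%, 20.4% and 13.4%, in the same order. In the 31 of 34 negative genes with a window they were 32.3%, 3.23%, 0%, 6.45% and 6.45%. Differences between gene groups were not tested. A match describes letters in a window and is not evidence of binding.

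Genes first induced after 2 h were followed on the FK506 arrays, whose change between the times does not enter the class. With curdlan alone, 556 genes rose from 2 h to 4 h (2.79% of all) and 260 fell (1.3%). With FK506 these counts were 180 (0.903%) and 156 (0.782%). Of the 642 genes first induced after 2 h, 321 were called raised between the times with curdlan alone. With FK506, 92 of the 642 (14.3%) were called raised, 85 of them among those 321, and 550 were not. At 4 h with FK506, 254 of the 642 were raised against nontreated cells, as were 589 of all genes (2.95%), and the median share of the 4 h induction left with FK506 was 58.8%. The share left is the rise above the nontreated level with FK506 as a percentage of the rise with curdlan alone, on the linear scale.

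The 126 genes of this class with a positive interaction are described next. The interaction includes the FK506 arrays, so a small rise and a low share left with FK506 follow from how these genes were chosen. The share left at 4 h had a median of 15.6%, with quartiles of 5.15% and 38.5%. In 78 of them it was under 25%, as in 121 of all 642 genes of the class. With FK506, 26 of the 126 were called raised between the times, and 35 were raised against nontreated cells at 4 h. For 104 of the 126 curdlan at 2 h was under 1.2-fold above the nontreated level, as for 341 of the 642, and for 55 its mean was below it. The interaction also subtracts the curdlan level at 2 h, so a low level there follows from the choice as well. Across all 212 positive genes, curdlan rose and the FK506 arrays had no call between the times for 131, both rose for 45, neither was called for 31, and the FK506 arrays alone fell for 5.

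**Figure D2:**
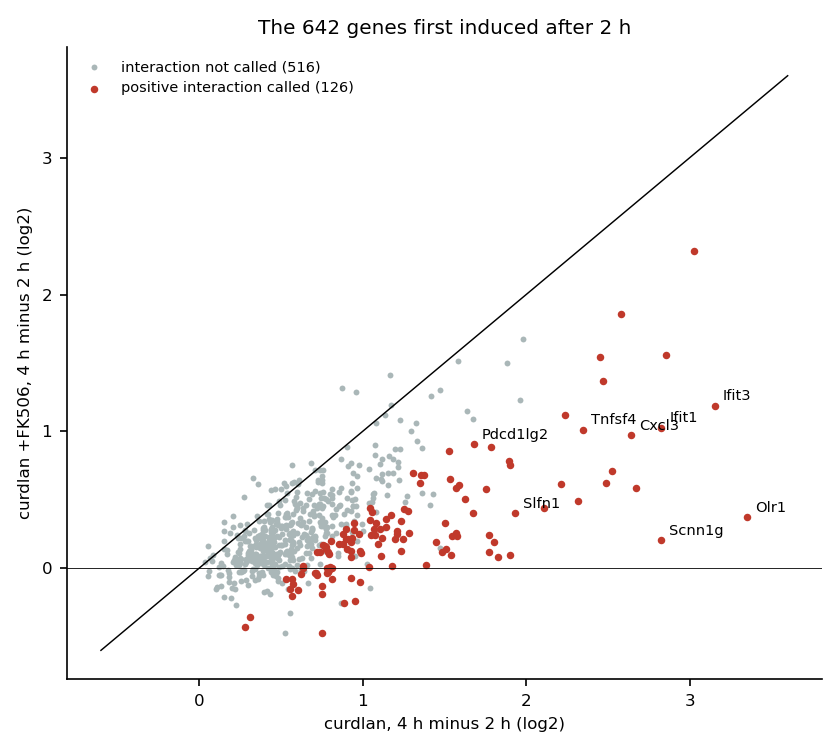
Change from 2 h to 4 h in log2 units with curdlan (x axis) and with curdlan +FK506 (y axis) for the 642 genes first induced after 2 h. The 126 genes with a called positive interaction, in red, lie below the diagonal of equal change: Olr1 and Scnn1g sit close to zero with FK506, while Ifit3, Ifit1, Cxcl3 and Tnfsf4 kept a smaller rise.

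Interferon-stimulated genes, which encode antiviral effectors and sensors, were the gene list with the most positive calls. Of 28 measured members, 21 had a positive and 0 a negative interaction. The median interaction of the list was 0.95, beside -0.05 over all genes. Over 6 other fits, scalings and array selections the positive calls ran from 18 to 22, with 0 negative calls in each. Curdlan raised 4 of the 28 at 2 h and 22 at 4 h, and with FK506 8 were raised at 4 h. FK506 lowered 2 of the 28 at 2 h and 20 at 4 h. Over all genes, curdlan raised 2.2% at 2 h and 5.05% at 4 h, and 2.95% were raised at 4 h with FK506. Lower with FK506 were 0.762% of all genes at 2 h and 1.53% at 4 h, and 0.361% were higher at 2 h. A positive interaction was called for 1.06% of all genes and a negative one for 0.171%. The same shares stand beside the counts of the lists that follow.

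Ifit1, an RNA-binding antiviral effector, showed the course of the list. Its levels were 6.36, 6.70 and 6.78 nontreated, 7.26, 7.29 and 7.04 with curdlan at 2 h, and 7.05, 6.75 and 7.35 with FK506 at 2 h. At 4 h they were 10.05, 9.97 and 10.04 with curdlan and 7.88, 8.38 and 7.98 with FK506. The groups overlapped at 2 h and not at 4 h, and the FK506 arrays still rose by 1.03 between the times. The interaction was 1.80 ± 0.22 (adjusted p = 0.000318, limma). Ifit2 had an interaction of 1.82 ± 0.17, Ifit3 of 1.97 ± 0.19 and the GTPase gene Mx2 of 1.87 ± 0.24. Ifit3 and Ifit3b are closely related copies whose probes may share signal, so their values are not separate evidence. Members that missed the call included Usp18, the deconjugating enzyme of ISG15 (0.41), Tap1, a peptide transporter (0.28), and Bst2, the tetherin gene (0.08). Ifnb1, a gene named after its values were seen, ran from 4.92 to 5.66 on the 9 arrays without FK506, and its interaction was -0.16 (adjusted p = 0.658, limma), with no FK506 call at either time.

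Chemokine genes changed in both directions. Of 34 measured, 5 had a positive interaction and Ccl7 had a negative one, with a list median of -0.03. FK506 lowered 10 at 2 h and 12 at 4 h and raised 1 at 2 h. Cxcl3, a neutrophil attractant first induced after 2 h, stood at 6.57, 6.57 and 6.61 with curdlan at 2 h and at 6.02, 5.99 and 6.36 with FK506. At 4 h it stood at 9.21, 9.11 and 9.36 with curdlan and at 7.07, 7.19 and 7.03 with FK506. The groups were separated at both times, and the distance grew to 2.13, an interaction of 1.67 ± 0.16. Ccl12, a monocyte attractant, changed otherwise: curdlan alone held its level (8.27, 8.28 and 7.87 at 2 h, 8.20, 8.35 and 8.26 at 4 h), whereas with FK506 it dropped from 7.29, 7.25 and 7.32 to 6.41, 6.54 and 6.34. Its interaction was 0.99 ± 0.15.

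Ccl7, another monocyte attractant, was lowered by FK506 at both times, by 3.75 at 2 h and 2.87 at 4 h. Its levels with curdlan were 11.23, 11.34 and 11.40 at 2 h and 9.72, 9.77 and 9.80 at 4 h, against 7.53, 7.59 and 7.62 and then 6.86, 6.90 and 6.93 with FK506. The FK506 arrays went from just above to just below the nontreated 7.34, 7.18 and 7.25, a called fall of 0.68. The interaction of -0.88 ± 0.08 is the difference between the fall of 1.56 with curdlan and this smaller fall. Ccl4 (MIP-1beta) and Ccl1 had interactions of -0.58 and -0.40 and were not called. Ccl4 passed the adjusted threshold (adjusted p = 0.00299, limma) and missed 1.5-fold.

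Among interleukins and growth factors, 7 of 43 measured genes had a positive interaction and Edn1, which encodes endothelin-1, had a negative one. The list median was 0.01. FK506 lowered 8 of the 43 at 2 h and 15 at 4 h. Csf2, which encodes the growth factor GM-CSF, was held near its start by FK506: its levels were 6.50, 6.41 and 6.31 at 2 h and 6.31, 6.40 and 6.47 at 4 h. Curdlan alone gave 8.13, 8.40 and 7.71 at 2 h and 9.35, 9.32 and 9.33 at 4 h, and the groups were apart at both times. The interaction was 1.27 ± 0.19, while the share of induction left was 9.76% at 2 h and 3.29% at 4 h and was not called as changed. A called fall needs at least 10 percentage points, which Csf2 could reach only below the nontreated level.

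Il6 and Il15 were first induced after 2 h. Il6 moved from 3.70, 3.56 and 3.30 to 4.52, 4.35 and 4.49 with curdlan and from 3.49, 3.55 and 3.46 to 3.52, 3.65 and 3.58 with FK506, all low on the array scale. Its interaction was 0.85 ± 0.12. Il15, a survival cytokine for NK and memory T cells, had an interaction of 0.89 ± 0.10. Il18, an inflammasome-processed cytokine with no curdlan call, had 0.75 ± 0.12. Il1a reached 0.66 ± 0.17 with an adjusted p of 0.0481 in limma, and this call was lost under most alternatives, including the removal of any 1 of the arrays at 2 h or 4 h.

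Il2 was lowered by FK506 at both times, and its interaction was not called. Its levels were 4.97, 4.72 and 4.79 nontreated, 11.15, 11.20 and 10.97 with curdlan at 2 h, and 9.54, 9.33 and 9.63 with FK506 at 2 h. At 4 h they were 12.22, 12.23 and 12.27 with curdlan and 10.38, 10.38 and 10.47 with FK506. The groups were separated at both times, and both rose between them. The FK506 effect was 1.61 at 2 h and 1.83 at 4 h, the interaction was 0.22 with a 95% interval from -0.03 to 0.48, and the share of induction left was 31.9% and 27.7%.

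**Figure D3:**
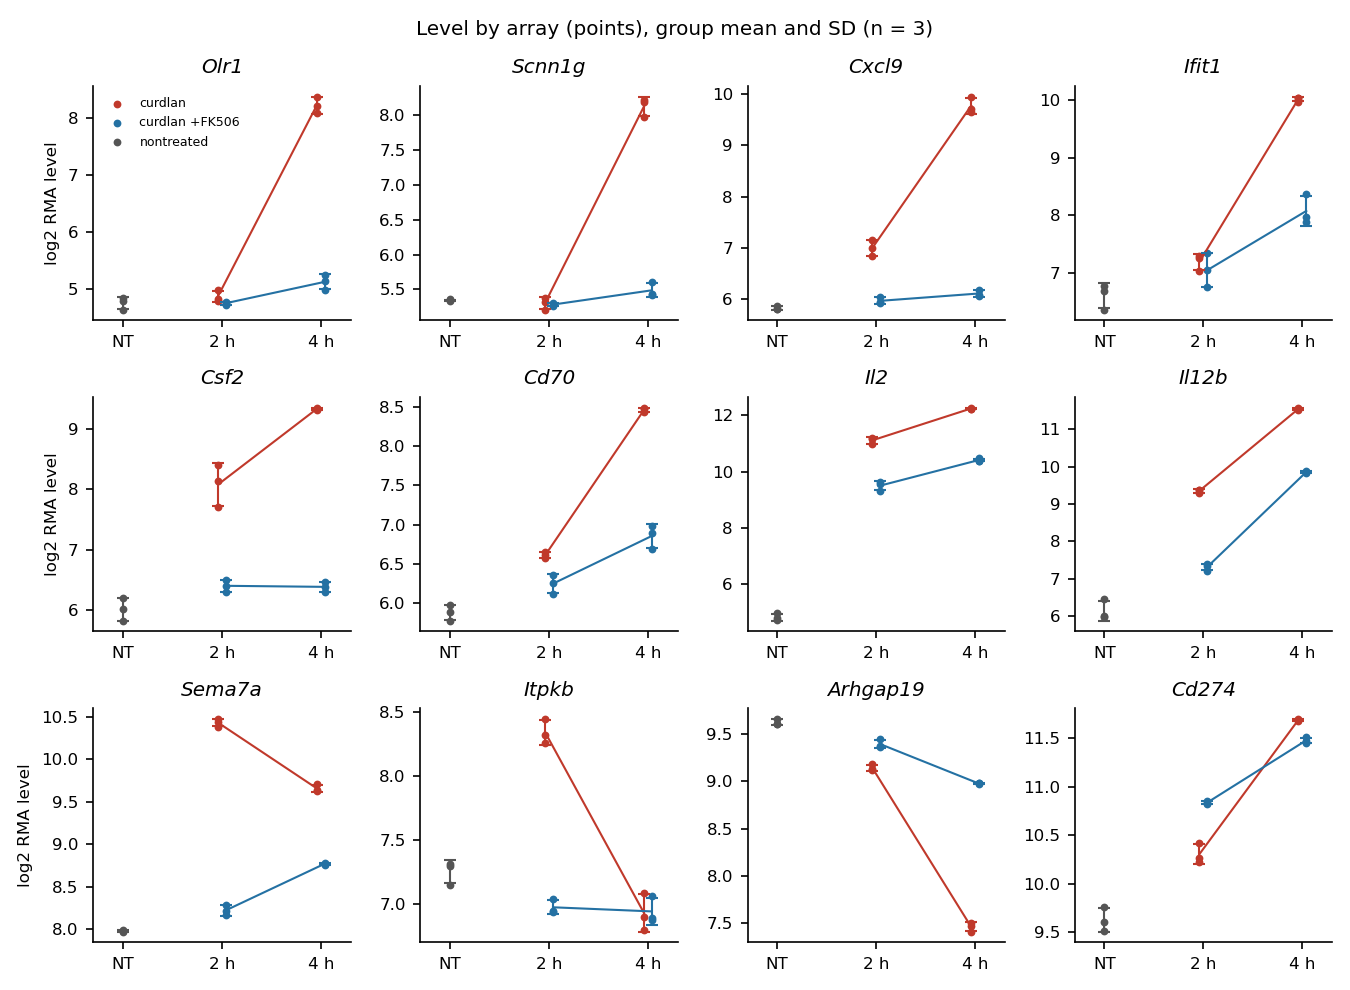
Log2 level of 12 genes by array (points) in nontreated cells (NT) and at 2 h and 4 h of curdlan or curdlan +FK506, with group means and SD (n = 3). The curdlan and FK506 lines part after 2 h for Olr1, Scnn1g and Ifit1, run side by side for Il2, close for Sema7a and Itpkb, and open in the opposite direction for Arhgap19.

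Of 25 measured genes known as NFAT-responsive from T cells, 9 were lower with FK506 at 2 h and 9 at 4 h. Csf2 had a positive and Rcan1 a negative interaction, and the list median was -0.15. Egr2 and Egr3, zinc finger factors, had interactions of -0.24 and -0.31, and Nr4a1, an orphan nuclear receptor, of -0.25, and none passed the test. Rcan1, the feedback inhibitor of calcineurin, stood at 9.39, 9.50 and 9.26 with curdlan at 2 h and at 8.54, 8.61 and 8.60 at 4 h. With FK506 its levels were 7.77, 7.85 and 7.83, then 7.87, 7.92 and 7.91, close to the nontreated 7.89, 8.09 and 8.05 at both times. The interaction was -0.88 ± 0.09. In the list of dectin-1, calcium and calcineurin signalling genes it was the 1 called member of 27, and the dectin-1 gene Clec7a had an interaction of 0.14, not called.

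TNF superfamily ligands held 2 positive calls among 15, with 4 genes lower with FK506 at 2 h and 7 at 4 h. Tnfsf4 (OX40 ligand) stood at 5.99, 6.09 and 6.08 with curdlan and 5.95, 5.83 and 5.95 with FK506 at 2 h, and at 8.32, 8.35 and 8.54 against 6.74, 6.99 and 7.05 at 4 h. Cd70, the ligand of CD27, went from 6.57, 6.61 and 6.65 to 8.43, 8.47 and 8.49 with curdlan, and from 6.12, 6.26 and 6.36 to 6.99, 6.69 and 6.90 with FK506. The groups were separated at both times for both genes. The interactions were 1.34 ± 0.13 and 1.24 ± 0.11. Tnf, Tnfsf14 and Tnfsf15 were not called, with interactions of 0.13, -0.48 and -0.09.

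Genes of dendritic cell maturation and costimulation held 5 positive calls among 20, and at 2 h Pdcd1lg2, which encodes PD-L2, was higher with FK506. Its levels at 2 h were 7.40, 7.46 and 7.01 with curdlan and 8.30, 8.28 and 8.30 with FK506, and at 4 h they were 8.97, 8.99 and 8.96 against 9.17, 9.21 and 9.22. The groups did not overlap, and the FK506 arrays were the higher at both times. The FK506 effect thus went from -1.0 to -0.23, and the interaction of 0.77 ± 0.16 measured a loss of that excess. Cd274, which encodes PD-L1, behaved alike at 2 h: 10.27, 10.23 and 10.42 with curdlan against 10.83, 10.83 and 10.86 with FK506. At 4 h it stood at 11.68, 11.70 and 11.69 against 11.47, 11.46 and 11.51, so the order of the groups had turned, with an interaction of 0.74 ± 0.09.

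Slfn1, a Schlafen family gene, was the only gene called in opposite directions at the 2 times. At 2 h its levels were 6.14, 6.14 and 6.36 with curdlan and 6.78, 6.83 and 6.96 with FK506. At 4 h they were 8.25, 8.15 and 8.02 with curdlan and 7.24, 7.33 and 7.22 with FK506. Curdlan at 2 h lay below the nontreated 6.71, 7.10 and 6.98, and the FK506 arrays at 2 h did not. The FK506 effect was -0.65 at 2 h and 0.88 at 4 h, an interaction of 1.53 ± 0.14.

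In the remaining lists, calls are read beside the 1.06% and 0.171% of all genes. Immediate early genes held Klf10, a zinc finger factor, at -0.85 as their 1 called member of 32 (list median -0.18). NF-kB subunits and feedback genes held Birc2, an inhibitor of apoptosis, at 0.90 as their 1 of 21 (median 0.14), a call that was lost when any of 5 arrays was left out alone. The Birc2 call was also lost with the mean of the gene's probe sets (0.55) and with the covariate of probe sets without a symbol (0.47). Cholesterol synthesis, uptake and oxysterol genes held Abca1, the cholesterol exporter, at -0.72 as their 1 of 18 (median -0.31). There were 0 calls among 23 feedback inhibitors of signalling (median 0.07), 32 cell cycle genes (-0.07), 23 proteases and matrix genes (-0.13), 14 oxidative stress genes (0.13) and 20 housekeeping and ribosomal protein genes (0.03). At an unadjusted limma p below 0.05 these 5 lists held 8, 13, 10, 3 and 0 genes. The share of all genes at this unadjusted threshold is not given here, so these counts cannot be read as high or low. Mmp13, a collagenase gene, had an interaction of 0.54 (adjusted p = 0.0163, limma), short of 1.5-fold, although FK506 lowered it strongly at both times.

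**Figure D4:**
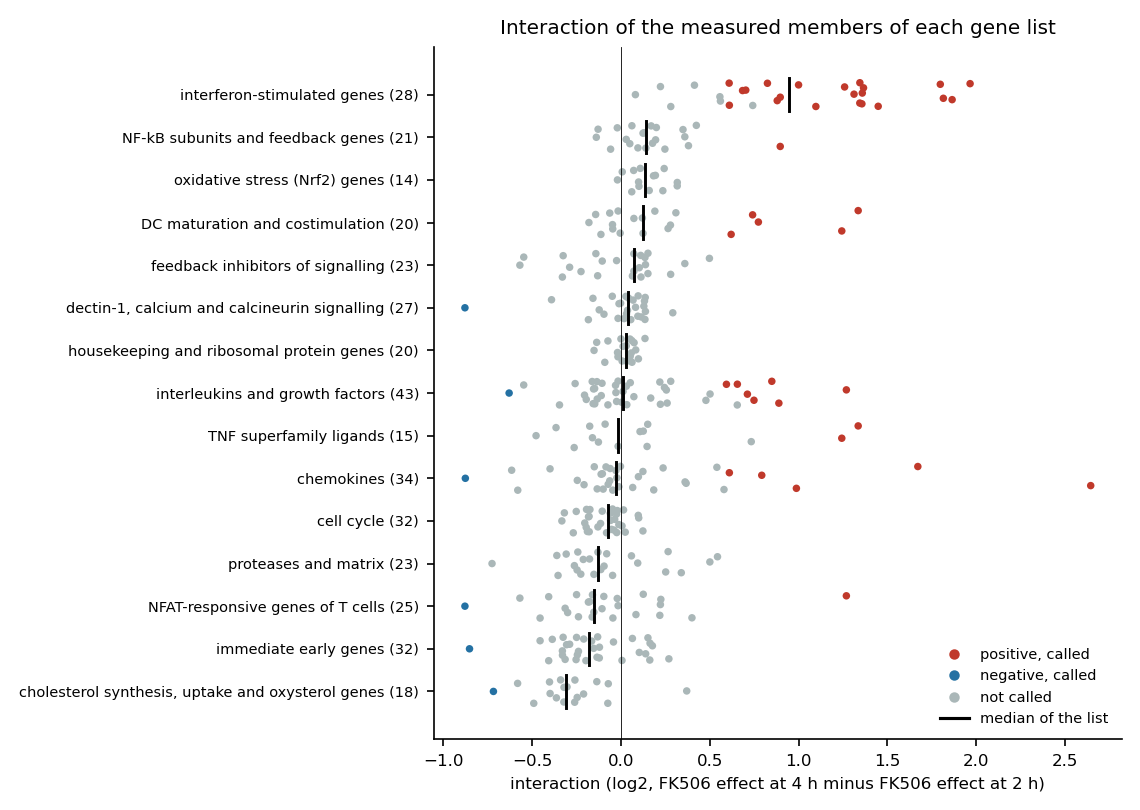
Interaction (log2, x axis) of the measured members of 15 gene lists, with the number measured in brackets, called members in colour and the median of each list as a bar. The interferon-stimulated genes lie to the right with a median of 0.95, and the medians of the other lists lie between -0.31 and 0.14.

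The share of induction left with FK506 was tested for the 365 genes induced at both times. A change in this share differs from the interaction: when the curdlan response itself grows and FK506 removes the same portion, the log2 distance widens and the share stays. The median share was 70.4% at 2 h and 63.5% at 4 h. It was called lower at 4 h for 79 genes (21.6%) and higher for 35 (9.59%), at an adjusted p below 0.05 and at least 10 percentage points. With array weights these counts were 139 and 58. The 2 measures picked overlapping but unequal sets. Of the 79 genes, 28 also had a positive interaction (28 of the 48 positive genes in this class), and of the 35, 9 also had a negative one (9 of 12). Another 20 positive and 3 negative genes, among them Cxcl9, Abhd12b, Csf2 and Cd70, had no call for the share. Cxcl9 (7.93%) and Csf2 (9.76%) began under 10% at 2 h, so a called fall was possible only below the nontreated level. Abhd12b (16.6% to 2.61%) and Cd70 (44.3% to 19.4%) fell by more than 10 percentage points and missed the adjusted p. A missing call is thus no sign of an unchanged share.

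Of the 79 genes whose share fell, 35 were above 100% at 2 h, where the FK506 arrays were higher than curdlan alone. Over all 365 genes tested, 91 were above 100% at 2 h, and a called fall selects for a high start. The 5 largest falls began above 100%. Curdlan had raised these 5 genes by log2 values of 0.61 (Prkab2) to 1.38 (Thap6) at 2 h, and the share divides by that rise. Pmepa1, an inhibitor of TGF-beta signalling, went from 264 ± 21% (SE) to 87.7 ± 6.0%, Cd274 from 219 ± 22% to 82.2 ± 4.8%, and Ptafr, the receptor of platelet-activating factor, from 196 ± 16% to 90.9 ± 5.1%. Thap6 went from 180% to 83.8% and Prkab2, an AMP kinase subunit, from 152% to 58.3%. Pmepa1 stood at 9.31, 9.35 and 9.36 with curdlan and at 10.12, 10.04 and 10.08 with FK506 at 2 h, and at 9.74, 9.75 and 9.76 against 9.75, 9.61 and 9.58 at 4 h. The excess at 2 h was gone at 4 h, when the groups overlapped.

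The share also fell for cytokine and regulator genes that were below 100% at 2 h. Il23a, the p19 subunit of IL-23, went from 45.7 ± 4.9% to 29.0 ± 3.0%, although its interaction of 0.65 ± 0.21 was not called (adjusted p = 0.105, limma). Its levels were 10.77, 10.82 and 10.72 with curdlan and 9.65, 9.63 and 9.84 with FK506 at 2 h, then 11.75, 11.74 and 11.78 against 10.08, 9.98 and 10.04. The groups were separated at both times, and the nontreated arrays ranged from 5.57 to 6.34. Il1a went from 85.1% to 53.9%, Egr2 from 17.5% to 1.2%, and Ccl12 from 32.7% to -4.36%, below the nontreated level. Ch25h, the cholesterol 25-hydroxylase, went from -1.18% to -24.2%.

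Among the 35 genes whose share rose was Sema7a. This gene for a membrane semaphorin stood at 10.44, 10.48 and 10.39 with curdlan at 2 h and at 8.17, 8.21 and 8.29 with FK506, and at 4 h at 9.71, 9.63 and 9.64 against 8.77, 8.76 and 8.78. The groups were far apart at 2 h and closer at 4 h, since curdlan fell by 0.78 and FK506 rose by 0.55, the latter short of a call. The share went from 4.05 ± 0.72% to 33.2 ± 2.0%, and the interaction was -1.33 ± 0.06. The 5 largest rises were those of Slc1a4, a neutral amino acid transporter (-59.1% to 41.3%), Sema6d, a semaphorin (47.3% to 123%), Phlpp1, an AKT phosphatase (-16.0% to 44.1%), Tet2, a DNA demethylation enzyme (15.4% to 68.9%), and Map3k14, the NF-kB inducing kinase (41.7% to 95%). Il12b, the shared p40 subunit of IL-12 and IL-23, rose from 15.3 ± 1.6% to 29.4 ± 2.1%, while its interaction of -0.35 was not called. With the share taken on the log2 scale, Il12b kept its call, and Il23a and Il1a lost theirs.

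**Figure D5:**
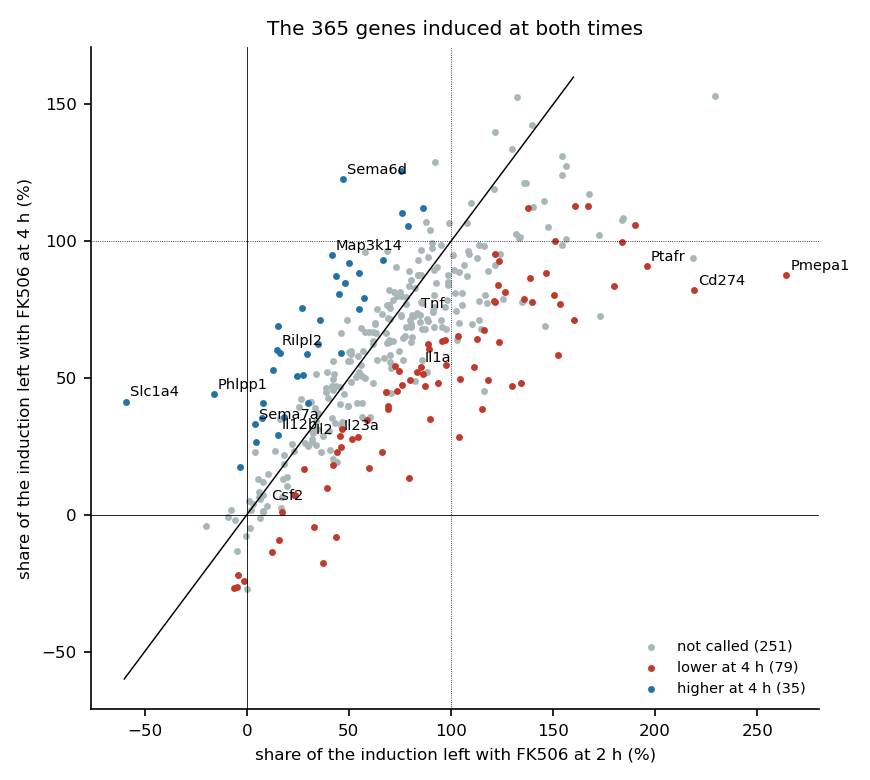
Share of the curdlan induction left with FK506 at 2 h (x axis) and at 4 h (y axis), in percent, for the 365 genes induced at both times, with 79 called lower and 35 called higher at 4 h. Pmepa1, Cd274 and Ptafr lie far to the right, above 100% at 2 h, Slc1a4 and Phlpp1 to the left of zero, and Il2 near the diagonal.

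The FK506 effect was larger at 2 h for a small set of early genes. Itpkb, an inositol trisphosphate kinase that acts on calcium signalling, stood at 8.32, 8.45 and 8.26 with curdlan at 2 h and at 7.03, 6.94 and 6.94 with FK506. At 4 h the groups overlapped, at 6.90, 6.80 and 7.09 against 7.06, 6.87 and 6.88, below the nontreated 7.14, 7.29 and 7.31. The interaction was -1.38 ± 0.11. Jarid2, a subunit associated with Polycomb complex 2, had -1.07 ± 0.10 with levels of 9.13, 9.10 and 8.89 against 7.63, 7.62 and 7.61 at 2 h. Frmd4b, a scaffold gene, had -1.18 ± 0.09, and here FK506 arrays rose by 0.89 between the times. Spin4, a spindlin gene, and Hspa1a, an inducible heat shock protein 70 with a near-identical neighbour copy, had -0.97 ± 0.17 and -1.07 ± 0.19. Rilpl2 had -0.91 ± 0.08, with a share called higher at 4 h, where it was 60.1%. Across the 34 negative genes, curdlan fell and FK506 had no call between the times for 15, and for 4 the FK506 arrays alone rose.

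Arhgap19 was lowered by curdlan and stood higher with FK506. Its levels were 9.61, 9.66 and 9.61 nontreated, 9.12, 9.18 and 9.14 with curdlan at 2 h, and 9.45, 9.36 and 9.38 with FK506 at 2 h. At 4 h they were 7.47, 7.41 and 7.50 with curdlan and 8.98, 8.97 and 8.98 with FK506. The groups were separated at both times, and the FK506 effect grew from -0.25 to -1.52, an interaction of -1.26 ± 0.06. Nxpe5, also of the lowered class, had -0.80 ± 0.12. Positive calls in this class included the guanylate-binding protein genes Gbp4 and Gbp9, at 1.03 and 0.87, which curdlan lowered at 2 h. Between the times Gbp4 rose with curdlan and had no call with FK506, and Gbp9 had no call with either.

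Array medians ran from 6.45 to 6.57, the mean correlation within a group from 0.995 to 0.999, and 0 pairs were identical. The values were quantile-normalised, which draws the arrays together, so these figures do not measure how alike the arrays were before. The arrays farthest from their groups were replicate 1 of the nontreated cells, with an array weight of 0.0781, and replicate 3 of curdlan at 2 h, with 0.119. Without both, 213 genes were positive and 40 negative. Shares called lower and higher at 4 h then numbered 112 and 52, against 79 and 35 in the main fit. The list of 10 conventional dendritic cell markers had an average level of 8.45 to 8.52 in nontreated arrays. Within it, Itgax and H2-Ab1 averaged 12.1 and 12.8 in nontreated cells, near the top of the scale. Clec9a and Xcr1, markers of the cross-presenting subset, stood at 4.28 and 5.08. The macrophage list stood above the dendritic cell list, with an average level of 9.06 to 9.18 in nontreated arrays. Its average stood lower with FK506 at both times, untested: 9.25 to 9.28 with curdlan against 8.88 to 8.94 with FK506 at 2 h, and 9.13 to 9.19 against 8.70 to 8.72 at 4 h, with a median interaction of 0.03. Mertk, a phagocytic receptor kinase, was its 1 positive member of 6 (0.68). Markers of fibroblasts, neutrophils, mast cells or basophils and of T, NK and B lymphocytes averaged between 4.76 and 6.31 on every array, with 1 positive call, the neutrophil receptor gene Cxcr2 (0.62), and 0 negative calls. The part of other cells in these results was not tested. In bulk RNA, fewer cells of a type and less RNA per cell cannot be told apart. Actb had an interaction of 0.01.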

How the data were processed

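RNA from the D1 line was hybridised to Affymetrix Mouse Gene 1.0 ST arrays, 3 per group. The authors deposited 1 table of log2 intensities made with RMA, which corrects background, quantile-normalises probes and summarises 34760 probe sets; the submitters' processing notes name RMA and affy in R 2.15.2. The log2 scale was read from the values, and no detection calls were used here. The table holds 0 columns beyond the 15 arrays, and array medians ran from 6.45 to 6.57.

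Probe sets with exactly 1 symbol in the platform annotation (21640, against 1321 with several and 11799 with none) were reduced to 19937 genes by keeping the probe set with the highest mean level. Of these symbols, 19918 were found in the RefSeq gene table. One model of 5 group means on all 15 arrays was fitted with limma 3.58.1 in R 4.3.3, and p-values were adjusted by Benjamini-Hochberg over all genes. A call needed an adjusted p below 0.05 and at least 1.5-fold. The share of induction left had a delta-method standard error from the moderated variance. Scripts were tested on simulated data.

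Named genes were the 8 largest called interactions each way, the 3 largest per class and direction, the 5 largest called share changes each way, up to 4 called members of each of 15 response lists, genes with opposite FK506 effects, and a set of cytokine and reference genes. The genes, lists and classes were chosen with earlier results of these data known. Usp18, Tap1, Bst2, Edn1, Ifnb1, Mertk, Cxcr2 and marker genes were named outside that rule after their values were seen, as was the Sema7a sequence. Same-numbered arrays did not deviate together (mean correlation of deviations -0.00985 over 30 pairs), so numbers were not treated as pairs. Alternatives covered the normalisation, array weights, covariates, filters, thresholds, the share scale, and leaving out each array.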

Additional observations from a re-analysis of the deposited data

Results flagged for a closer look

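The FK506 effects at 2 h and 4 h differed by the interaction test for 212 genes in the positive and 34 in the negative direction. Slfn1 had called FK506 effects in opposite directions at the 2 times, with an interaction of 1.53. Among 13120 probe sets with several symbols or none, which no comparison above used, 34 had a positive and 3 a negative interaction at the same thresholds.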

How the results depend on the processing

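The number of positive interactions was 594 with no fold threshold and 59 with a 2-fold threshold, and that of negative ones 278 and 6. Negative interactions numbered 81 with the covariate of probe sets without a symbol. Positive genes first induced after 2 h numbered 263 with no fold threshold and 47 at 2-fold. The number of genes tested for the share changed with the setting. Shares called lower at 4 h numbered 79 of 365 genes tested in the main fit and 139 of 372 with array weights. They numbered 125 of 1192 with no fold threshold in the classes and 43 of 189 at 2-fold. With only genes raised at least 4-fold at both times, an alternative chosen after seeing the data, they numbered 13 of 57. Shares called higher numbered 35 in the main fit, and 58, 17 and 5 with array weights, at 2-fold and at 4-fold. Leaving out each array in turn gave 184 to 242 positive and 28 to 39 negative interactions, 109 to 135 positive genes first induced after 2 h, 61 to 116 lower shares and 26 to 39 higher shares. The highest counts of positive and negative interactions and of lower shares came without nontreated replicate 1. On the 12 curdlan arrays only there were 238 and 39. With the replicate number as a block (replicate block) 202 and 32 genes were called, of which 233 in all had the main call. Named genes were not checked one by one with no fold threshold or at 2-fold, where 65 of all 246 called genes kept their call. Under the other alternatives, 44 of 53 named genes with a call kept it. Il1a, Birc2, Phf11d, Cypt2, Sema6d, Thap6, Il18, Pdcd1lg2 and Abca1 lost it under at least 1. Of 19 named genes without a call, 15 gained none under these alternatives, and Il23a, Ccl4, Tnfsf14 and Mmp13 did under some. All 10 genes named for their share kept that call in the fits at the 1.5-fold threshold where they stayed in the tested class. None of these 10 was raised 4-fold at 2 h, so that alternative did not test them. In 0 named values did the sign reverse with a call on either side. Without a call, the interaction changed sign for Il1b (-0.24 to 0.32), Tnfsf15 (-0.18 to 0.19) and Actb (-0.0066 to 0.0207). The cause of these moves was not tested. The number of arrays limits the precision, and low-level genes lie near background.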
